A study of Mus musculus with 192 samples.

Results

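The data described here are the cortex samples of L44 mice taken in the afternoon (PM) at the stage called T2, in hemizygous (HEM) animals and their nontransgenic (NON) controls. They were picked out by stage, collection time, region and genotype in the labels, with no measured value in the rule, and make up 16 of the 192 RNA pools of the series. Each pool combined the RNA of 2 male mice on the FVB/n background, and both cortices were taken from the same mice. There were 3 HEM pools (6 mice) and 5 NON pools (10 mice), each with a left and a right cortex. HEM mice inherit from one parent a multi-copy transgene for triprolyl human amylin, a form that does not aggregate, driven by the rat insulin 2 promoter of pancreatic beta cells. NON mice carry no transgene and were littermates where possible. T2 is named for the onset of diabetes in transgenic mice, when weekly blood glucose was repeatedly high on standard chow, and the T2 NON mice were the controls assigned to that stage, not mice at diabetes onset. Pools are named by their labels, which count mice within a genotype, so HEM pool 5/10 and NON pool 5/10 hold different animals. The labelled ages were 156 and 90 days in HEM pool 5/10, 235 and 167 days in HEM pool 7/12, and 243 and 215 days in HEM pool 8/14. The NON pools were 243 and 217 days (2/15), 100 and 128 days (4/13), 185 and 175 days (5/10), 171 and 236 days (6/9) and 156 and 90 days (11/14).

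Amylin is a hormone that beta cells release together with insulin and that acts on the brain to limit food intake. Its receptor is the calcitonin receptor, encoded by Calcr, joined to a receptor activity-modifying protein (Ramp1, Ramp2 or Ramp3), and c-Fos is an immediate early gene that neurons switch on when they are active. Insulin and leptin reach the same circuits through the insulin receptor with the PI3K and Akt cascade, and through the long leptin receptor (Lepr-b) with Jak2 and Stat3. Cart and Pomc are neuropeptide genes that restrain feeding, while Npy and Agrp promote it. In the cortex, Npy is a product of inhibitory interneurons and Cart is made by scattered neurons.

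The authors counted 43 target genes and 3 reference genes with barcoded probes on the nCounter platform, which counts RNA molecules without amplification, and deposited the raw counts. The total over the 43 target genes was 234552 to 368893 counts in the left cortex pools and 385221 to 525264 counts in the right cortex pools. Values below are normalised counts, that is counts per 1000 counts of the geometric mean of the 3 reference genes of the same pool. The background of a pool was the mean plus 2 SD of its 8 negative control probes, which was 21.0 to 35.5 raw counts in the left cortex and 31.1 to 39.5 raw counts in the right cortex. Of the 43 genes, 38 were above background in at least 8 of the 16 pools. The others were Iapp, the amylin gene (above background in 2 pools), Ins1 (1 pool), Ins2 (0 pools), Calcr-1a (0 pools) and Calcr-1b (7 pools). A reading that is not above background cannot be distinguished from the negative control probes of its pool. These are whole-tissue RNA counts, in which fewer cells of a type and less RNA per cell cannot be told apart.

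Some pools stood apart before any gene was compared. HEM pool 8/14 had the lowest counts of the left cortex, with a reference gene mean of 4491 counts where the other 7 pools had 5752 to 7003. The reference gene mean was 5541 ± 910 counts in HEM and 6306 ± 466.4 in NON left cortex (SD, n = 3 and 5, exact two-sided permutation test, p = 0.21, adjusted p = 0.60). In the right cortex it was 7949 ± 682 in HEM and 8923 ± 615 in NON (exact two-sided permutation test, p = 0.11, adjusted p = 0.60). All 14 such tests of pool level measures had an adjusted p of 0.60 or more, where 3 against 5 pools can give no p under 0.0357. The panel holds no marker that defines cortex. It does hold hypothalamic peptides, and Mch was 13.0 to 21.7 normalised counts in the 16 cortex pools where the midbrain pools of the same HEM mice, dissected together with the forebrain, had 4095 ± 97.7 (SD, n = 3). Hcrt was 4.46 to 9.52 in the cortex and 140.3 ± 7.35 in that midbrain. The sum of Agrp, Hcrt, Mch and Pomc was 47.5 ± 9.96 in HEM and 38.8 ± 3.76 in NON left cortex (exact permutation p = 0.18), and 43.9 ± 7.25 and 42.1 ± 9.99 in the right cortex (exact permutation p = 0.82).

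HEM and NON were compared in each cortex, to ask which genes of the amylin, insulin and leptin pathways differ at the onset of diabetes. With an adjusted p under 0.05 and a change over 2-fold required, Calcr alone was called, in the left cortex, where HEM was higher. That is 1 of 43 genes (2.33%). No gene was called in the right cortex (0%) or in the counts of both cortices summed for each pool (0%). At an unadjusted p under 0.05 there were 8 genes in the left cortex, 3 in the right cortex and 6 in the sum by edgeR's quasi-likelihood test, and DESeq2 called 2, 0 and 1 genes. In the same order, the numbers at an unadjusted p under 0.05 were 2, 1 and 17 with positive control probes as the scale and 4, 1 and 6 with limma-trend. Over all 43 genes the median log2 fold-change was 0.01 (left) and 0.03 (right). The count in the left cortex was 1 to 4 when each pool was left out in turn. It was 4 (Calcr, Calcr-1a, Cart and c-Fos) without HEM pool 8/14, though Calcr-1a was above background in 0 of 16 pools, and 2 (Calcr and Cart) without NON pool 5/10.

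Calcr, the core subunit of the amylin receptor, was higher in the left cortex of HEM mice. Its normalised count there was 33.3 in HEM pool 5/10, 24.3 in HEM pool 7/12 and 6.01 in HEM pool 8/14. In NON left cortex it was 2.96 (2/15), 4.45 (4/13), 4.82 (5/10), 3.63 (6/9) and 4.00 (11/14). After normalisation the lowest HEM pool (8/14) read above the highest NON pool (5/10), which was not above background. HEM pool 8/14 had 27 raw counts, inside the 17 to 31 of the NON pools, and the lowest reference gene mean. Its order against the NON pools at background is thus not fixed. Of the HEM pools, 2 were more than 4 times the third. All 3 HEM pools were above background and 4 of the 5 NON pools, with raw counts of 17 to 31, were not. This split depends on the background of each pool as well as on its counts. HEM pool 8/14 (27 counts) and NON pool 4/13 (28) had backgrounds of 21.0 and 22.9. NON pools 11/14 (28 counts) and 5/10 (31) had backgrounds of 31.4 and 35.5. The group means were 21.2 ± 13.9 and 3.97 ± 0.73 (SD, n = 3 and 5), with a log2 fold-change of 2.42 (SE 0.47, 95% interval 1.46 to 3.39, edgeR adjusted p = 0.000671). Leaving out each pool in turn gave 1.95 to 2.85 with an adjusted p of 0.033 or less, and subtracting the mean of the negative control probes gave 3.5001. With 4 of the 5 NON pools at background, the size of the difference is thus not fixed by these counts.

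In the right cortex the Calcr groups overlapped. The normalised count was 21.1 (5/10), 11.2 (7/12) and 7.99 (8/14) in HEM. It was 4.36 (2/15), 3.16 (4/13), 17.02 (5/10), 5.54 (6/9) and 5.26 (11/14) in NON. NON pool 5/10 was above the second HEM pool, while the other 4 NON pools were all below the lowest HEM pool. The log2 fold-change was 0.93 (SE 0.46, edgeR adjusted p = 0.45), and 1.55 without NON pool 5/10 (edgeR adjusted p = 0.046). Without HEM pool 5/10 it was 0.44 (edgeR adjusted p = 0.95). In the summed cortices the log2 fold-change was 1.54 (SE 0.44, edgeR adjusted p = 0.0745), which became 1.07 without HEM pool 5/10 and 1.98 without NON pool 5/10 (edgeR adjusted p = 0.48 and 0.011). The left effect exceeded the right by 1.34 on the log2 scale (SE 0.57, 95% interval 0.14 to 2.55), which did not pass the test with the pool as a block (edgeR adjusted p = 0.50, 0% of 43 genes called). Calcr was above background in 1 of 5 NON pools on the left and 4 of 5 on the right, so the size of this difference is not fixed either. Without NON pool 5/10 this difference was 0.89.

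**Figure D1:**
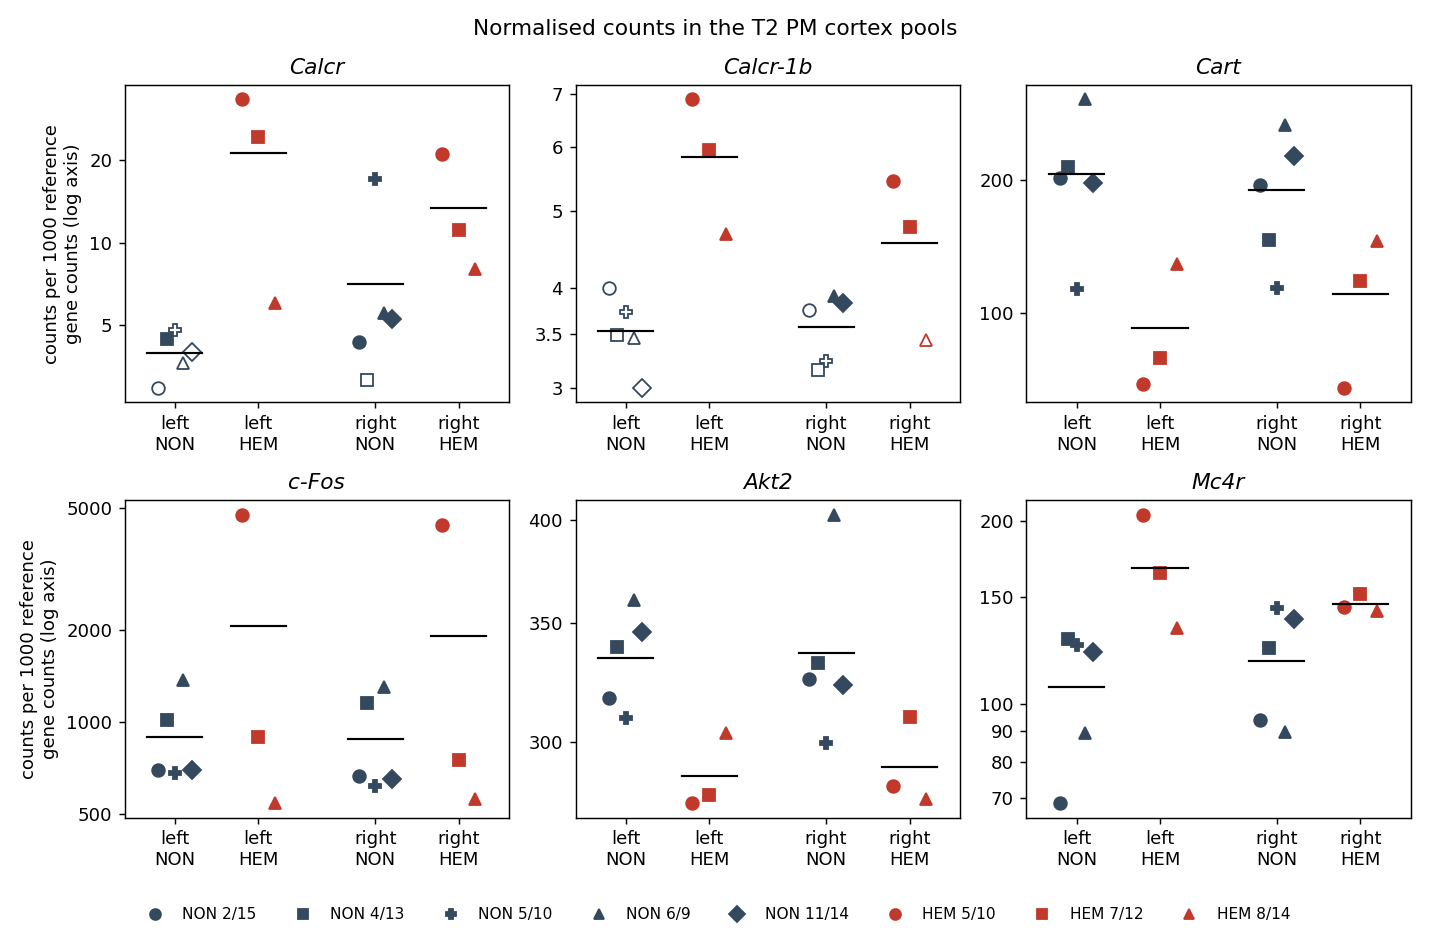
Normalised counts (log axis) of 6 genes in each T2 PM pool by cortex and genotype. Each symbol is a pool, hollow where the gene was not above background, and lines are group means (n = 3 HEM and 5 NON). Left Calcr was 6.01 to 33.3 in HEM and 2.96 to 4.82 in NON, and HEM pool 5/10 had c-Fos above 4000 in both cortices while the other HEM pools lay among or below the NON pools.

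The probes for the splice forms of the receptor were dimmer. Calcr-1b, the probe for receptor form 1b, was 6.89, 5.96 and 4.68 normalised counts in HEM left cortex (pools 5/10, 7/12 and 8/14). In NON left cortex it was 3.00 to 4.00, below background in all 5 pools. The normalised ranges did not overlap, but HEM pool 8/14 had 21 raw counts and the NON pools 21 to 24. The order of that pool and the NON pools is thus not fixed. The log2 fold-change of Calcr-1b there was 0.74 (SE 0.29, edgeR adjusted p = 0.12), and 1.54 after subtraction of the negative control mean, so its size is not fixed by these counts. In the right cortex Calcr-1b was 5.45, 4.77 and 3.45 in HEM and 3.16 to 3.91 in NON, with a log2 fold-change of 0.35 (SE 0.22). It was above background there in 2 of 3 HEM pools (not 8/14) and 2 of 5 NON pools, so that size is not fixed either. Calcr-1a, for form 1a, was above background in 0 of the 16 pools, and no fold-change is given for it. The amylin probe (Iapp), which may count RNA of the mouse gene, of the human transgene or of both, was above background only in NON pool 6/9 of the left and NON pool 5/10 of the right cortex.

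The 3 Ramp genes differed little. Ramp1 had log2 fold-changes of 0.06 (left, SE 0.08) and -0.05 (right, SE 0.08). The values were -0.0013 and 0.11 for Ramp2 and -0.12 and 0.03 for Ramp3. Of the 7 genes of the amylin ligand and receptor list, 1 was called in the left cortex (higher) and 0 in the right cortex. Over all 43 genes the calls were 1 (2.33%) and 0 (0%). The median log2 fold-change of the 4 detected members was 0.03 (left) and 0.07 (right). The genes that quench G protein-coupled receptors, Adrbk1 (a receptor kinase), Arrb1 and Arrb2 (the beta-arrestins), had log2 fold-changes of -0.02 to 0.09, and 0 of 3 were called in either cortex. Arrb1 in the right cortex was 4348 to 4456 normalised counts in HEM and 3994 to 4263 in NON, which did not overlap, at a log2 fold-change of 0.09 (edgeR adjusted p = 0.67).

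c-Fos had the second largest log2 fold-change of the detected genes in the left cortex and the largest in the right, and a single pool carried it. In the left cortex its normalised count was 4737 in HEM pool 5/10, 895 in 7/12 and 542 in 8/14, against 694 (2/15), 1013 (4/13), 683 (5/10), 1366 (6/9) and 695 (11/14) in NON. Right cortex readings were 4385, 751 and 561 in the same HEM pools, against 668, 1151, 617, 1300 and 650 in NON. HEM pool 5/10 was thus over 3 times the highest NON pool in both cortices, HEM pool 7/12 lay within the NON range, and HEM pool 8/14 was below every NON pool. The log2 fold-changes were 1.21 (SE 0.54, edgeR adjusted p = 0.21) in the left, 1.11 (SE 0.52, edgeR adjusted p = 0.45) in the right and 1.16 (SE 0.55, edgeR adjusted p = 0.28) in the summed cortices. Without HEM pool 5/10 they were -0.31, -0.42 and -0.37.

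The left and right readings of that pool came from separate RNA samples of the same 2 mice. HEM pool 5/10 had the highest c-Fos of all 48 left cortex pools (the next was 2128), of all 49 right cortex pools (next 1996) and of all 49 midbrain pools, where it was 1834 and the next was 1220. In the hindbrain the pool was at 599, rank 24 of 46 pools. The midbrain of the other HEM pools was at 669 (7/12) and 404 (8/14), and the NON midbrain at 476 to 723. PM pools of homozygous (HOM) mice at T2 had 548, 931 and 483 in the left and 413, 906 and 491 in the right cortex. Calcr in these HOM pools was 13.9, 3.05 and 15.1 in the left and 12.5, 10.2 and 22.9 in the right cortex. The reading of 3.05 came from 13 raw counts, under the lowest left cortex background given above. The NON pools are the controls of HEM and of HOM alike.

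**Figure D2:**
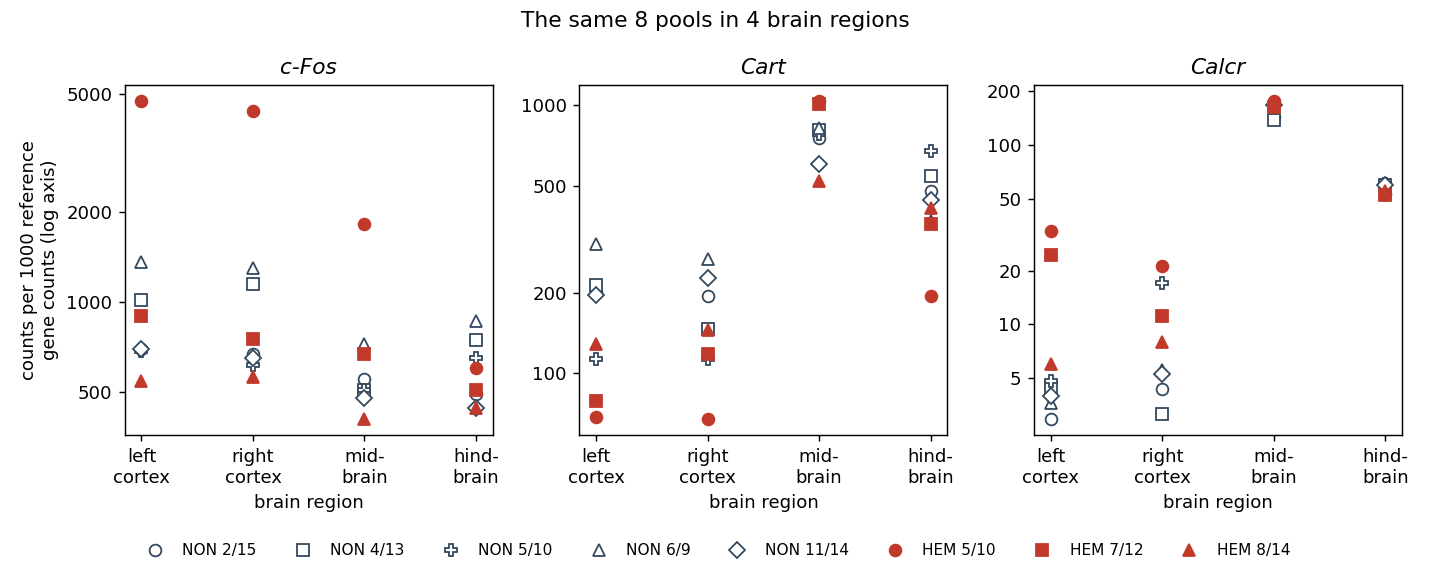
Normalised counts (log axis) of c-Fos, Cart and Calcr in 4 brain regions of the same 8 pools, HEM filled and NON hollow. HEM pool 5/10 stood at 4737, 4385 and 1834 for c-Fos in the left cortex, right cortex and midbrain, and at 599 in the hindbrain.

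Cart, whose peptide restrains feeding, was lower on average in HEM cortex but was not called in the main test. It was called in the left cortex under 3 of 16 other settings. These were DESeq2 (log2 fold-change -1.16), positive control probes (-1.32) and the age-matched pools as a replicate block (-1.37). The block holds NON pools 2/15, 6/9 and 11/14 and so leaves out NON pool 5/10, whose removal alone also gave a call (below). The left cortex held 68.9 (5/10), 79.0 (7/12) and 128.9 (8/14) normalised counts in HEM. The NON pools held 201.7 (2/15), 213.4 (4/13), 113.0 (5/10), 304.6 (6/9) and 196.4 (11/14). NON pool 5/10 was below the highest HEM pool, and the other 4 NON pools were above all HEM pools. Right cortex values were 67.5, 117.8 and 145.4 in HEM and 195.3, 146.2, 113.6, 266.8 and 226.2 in NON, listed in the same order of pools, and again only NON pool 5/10 fell inside the HEM range. The log2 fold-change was -1.16 (SE 0.39, edgeR adjusted p = 0.12) in the left, -0.78 (SE 0.37, edgeR adjusted p = 0.45) in the right and -0.93 (SE 0.35, edgeR adjusted p = 0.16) in the summed cortices. Without NON pool 5/10 the left value was -1.31 (edgeR adjusted p = 0.048), without HEM pool 8/14 it was -1.48 (edgeR adjusted p = 0.048), and without HEM pool 5/10 it was -0.99 (edgeR adjusted p = 0.59). The left and right effects differed by -0.36 (SE 0.18, edgeR adjusted p = 0.51). The T2 PM pools of HOM mice had Cart at 54.5, 138.0 and 126.1 in the left and 64.5, 202.5 and 154.9 in the right cortex.

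Outside the cortex, Cart was 1039, 1008 and 520 in HEM midbrain (pools 5/10, 7/12 and 8/14) and 754 ± 88.1 in NON midbrain (SD, n = 5), so HEM lay on both sides of NON there. In the hindbrain it was 194, 360 and 412 in HEM and 503 ± 116 in NON (SD, n = 5). Calcr was 177.2, 163.2 and 168.6 in HEM midbrain (same order of pools) and 137.7 to 174.4 in NON midbrain, which overlapped. In the hindbrain Calcr was 53.3, 52.8 and 55.8 in HEM, below the 58.9 to 61.2 of the NON pools. These readings are all above those of Calcr in the cortex. Whether tissue of other regions added to the cortex readings of Calcr was not tested.

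c-Fos and Cart were the genes that set HEM pool 5/10 apart most besides Calcr, in opposite directions, at 2.43 above and 1.47 below the NON mean on the log2 scale over both cortices (-1.47 for Cart). Both genes are known to answer to cAMP signalling in neurons, so the 250 bases before their start sites are shown, from RefSeq (GRCm38.p6), with each TGACGT in capitals (the core of the cAMP response element, searched on both strands). The c-Fos window is chr12:85473640-85473889 on the plus strand and the Cart (Cartpt) window chr13:99900684-99900933 on the minus strand.
c-Fos: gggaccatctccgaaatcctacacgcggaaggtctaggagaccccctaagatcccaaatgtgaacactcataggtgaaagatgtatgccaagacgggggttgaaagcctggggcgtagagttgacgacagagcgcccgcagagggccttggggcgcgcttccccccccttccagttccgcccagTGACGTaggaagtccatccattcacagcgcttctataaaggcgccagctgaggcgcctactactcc
Cart: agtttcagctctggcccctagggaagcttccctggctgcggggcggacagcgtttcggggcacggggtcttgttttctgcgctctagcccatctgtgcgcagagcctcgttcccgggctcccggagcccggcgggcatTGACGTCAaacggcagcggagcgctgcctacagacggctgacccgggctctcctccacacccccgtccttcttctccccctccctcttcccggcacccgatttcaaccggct
The motif begins 66 bases before the c-Fos start site on the strand shown, and 112 bases before that of Cart, where the forward and reverse matches overlap in TGACGTCA. It was found in 6.47% of all 32851 such windows, and the counts do not bear on its use.

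Among the other feeding peptides, Mc4r, the receptor at which the Pomc product acts, was 204.6, 164.0 and 133.1 in HEM left cortex (pools 5/10, 7/12 and 8/14) and 68.5, 127.9, 124.6, 89.5 and 121.5 in NON (2/15, 4/13, 5/10, 6/9 and 11/14). The HEM pools were all above the NON pools there, by a margin of 133.1 against 127.9. This gave a log2 fold-change of 0.65 (SE 0.23, edgeR adjusted p = 0.12). On the right it was 141.8 to 151.4 in HEM and 89.9 to 143.8 in NON, at a log2 fold-change of 0.31 (SE 0.24, edgeR adjusted p = 0.67). The T2 PM pools of HOM mice had Mc4r at 94.8 to 113.3 on the left and 96.8 to 111.0 on the right, within the NON ranges. Npy, which promotes feeding, ran from 9579 to 13084 in HEM and from 7862 to 12517 in NON left cortex, with a log2 fold-change of 0.20 (SE 0.18) there and 0.24 (SE 0.15) on the right. The highest Npy pools were HEM 5/10 and NON 5/10 in both cortices.

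Pomc was near 10 normalised counts in most pools, and 2 pools were higher. HEM pool 7/12 had 22.4 on the left and 20.8 on the right, and NON pool 6/9 had 12.4 on the left and 27.8 on the right. On the log2 scale HEM differed from NON by 0.49 (SE 0.31) on the left and -0.09 (SE 0.44) on the right. Of the 7 genes of this list, 0 were called in either cortex, with median log2 fold-changes of 0.22 (left) and 0.14 (right). The hypothalamic peptide sums given above move with it, since Agrp, Hcrt, Mch and Pomc are 4 of the 7 members, and their part in these values was not tested.

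In the insulin arm the fold-changes were small. Akt2, the Akt form that carries insulin's effect on glucose uptake, was 276.9, 279.9 and 303.5 normalised counts in HEM left cortex (pools 5/10, 7/12 and 8/14), below the 309.5 to 360.5 of the 5 NON pools. On the right it was 283.3, 309.7 and 278.4 in HEM, and 325.3, 332.1, 299.6, 402.7 and 323.0 in NON. Only NON pool 5/10 was below the highest HEM pool there. The T2 PM pools of HOM mice had Akt2 at 288.2, 293.7 and 293.0 on the left and 292.5, 292.6 and 265.7 on the right. These were below every NON pool in both cortices. HEM over NON the log2 fold-change was -0.22 (SE 0.08, edgeR adjusted p = 0.12) in the left, -0.21 (SE 0.11, edgeR adjusted p = 0.45) in the right and -0.22 (SE 0.07, 95% interval -0.36 to -0.08, edgeR adjusted p = 0.0745) in the summed cortices, far below the 2-fold limit.

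Pdk1, under which symbol the 3-phosphoinositide-dependent kinase that activates Akt is listed with its pathway, was 2642 to 2740 in HEM and 2117 to 2603 in NON right cortex, without overlap. In the left cortex it was 2427 to 2741 in HEM and 2009 to 2709 in NON, which overlapped, and the log2 fold-changes were 0.20 (left, SE 0.14) and 0.23 (right, SE 0.12). Akt1 was 1692 to 1787 in HEM and 1612 to 1675 in NON left cortex, also without overlap, at a log2 fold-change of 0.07 (SE 0.05), and overlapped in the right. Foxo1, a transcription factor that Akt restrains, differed by 0.07 on the left and -0.29 on the right (SE 0.19 and 0.15). Of the 10 genes of the PI3K and Akt list 0 were called in either cortex, with median log2 fold-changes of -0.02 (left) and 0.01 (right).

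The 6 genes of insulin ligands, receptor and substrates had 0 calls. Their 4 detected members (Insr, Irs1, Irs2 and Ptp1b, the phosphatase that acts on the insulin receptor) ran from -0.12 to 0.08 on the log2 scale over both cortices. Insr was the highest of them, at a mean log2 fold-change of 0.04 over both cortices, and Ptp1b the lowest at -0.11.

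The leptin arm had 0 of 6 genes called in either cortex. Lepr-b, the signalling form of the leptin receptor, was 28.5, 32.6 and 30.5 normalised counts in HEM left cortex and 32.3 to 41.5 in NON, with a log2 fold-change of -0.31 (SE 0.15, edgeR adjusted p = 0.22). The HEM and NON ranges touched through HEM pool 7/12 and NON pool 2/15. On the right it was 31.7 to 39.8 in HEM and 35.5 to 49.2 in NON, with a log2 fold-change of -0.23 (SE 0.17). Socs3, which dampens leptin signalling, was 14.5 ± 2.35 in HEM and 14.8 ± 3.30 in NON left cortex, and 14.2 ± 1.79 and 13.7 ± 1.72 in the right (SD, n = 3 and 5). Its log2 fold-change was -0.04 (95% interval -0.93 to 0.85) and 0.05 (95% interval -0.75 to 0.86). The highest mean over both cortices in this list was that of Pias3, an inhibitor of Stat3, at 0.08. In the list of histamine, chromatin and activity genes, with 0 of 4 called, Hdc, which makes histamine, had the lowest mean at -0.04.

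**Figure D3:**
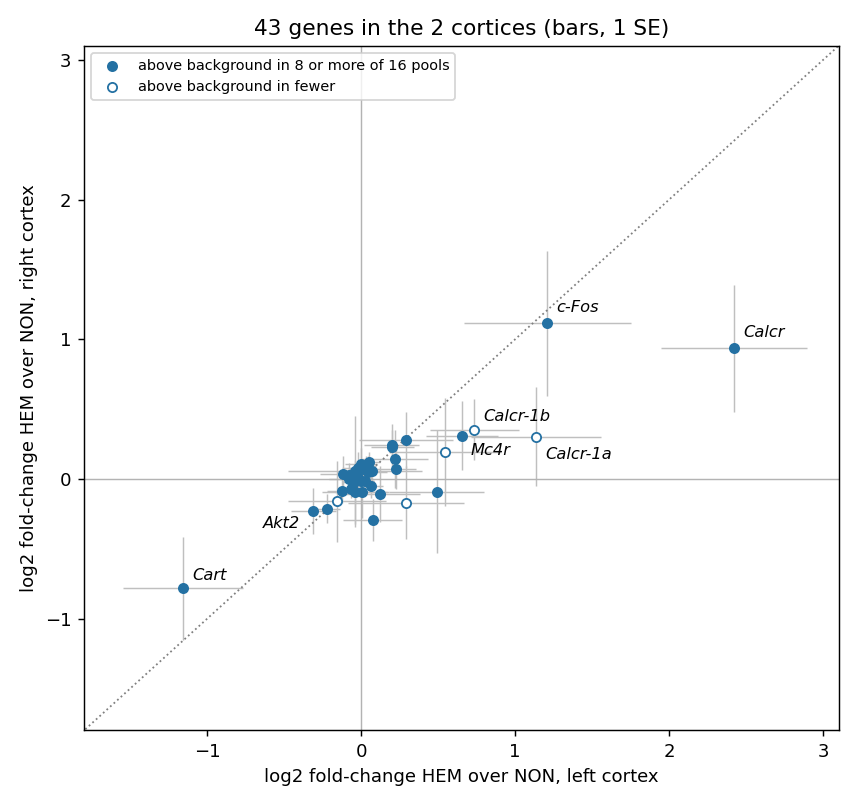
Log2 fold-change HEM over NON of the 43 genes in the left (x axis) and right (y axis) cortex, with bars of 1 SE, a dotted line of equality and hollow points for genes above background in fewer than 8 of 16 pools. c-Fos lay near the line at 1.21 and 1.11, while Calcr lay to its right at 2.42 and 0.93.

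The cortices were compared with each other, gene by gene and pool by pool. As they come from the same mice, the right cortex is no second test of the left. The log2 fold-change was under 0.3 in size for 34 of 43 genes on the left and 37 on the right, and 26 of 43 had the same sign in both. No gene passed the test of a difference between the left and right effects (0%), and 4 had an unadjusted p under 0.05 in edgeR (Calcr, Foxo1, Mc4r and Pik3ca), 0 without the pool as a block. Of the genes whose HEM and NON pools did not overlap, 4 were higher (Akt1, Calcr, Calcr-1b and Mc4r, 9.3%) and 1 was lower (Akt2, 2.33%) in the left cortex. On the right 2 were higher (Arrb1 and Pdk1, 4.65%) and 0 lower (0%), and none was on both lists. Overlap was judged on the reference gene scale only. With positive control probes as the scale, the log2 fold-change of right Pdk1 was -0.00999 and the panel medians were lower (given below). Left Calcr and Calcr-1b were above background in 1 and 0 of the 5 NON pools, so their place in the left count is not fixed.

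How far a pool's left and right readings differed depended on the gene. The SD over the 8 pools of the left minus right difference in log2 normalised counts was 0.13 for c-Fos, where the SD between NON pools of a cortex averaged 0.48. For Npy these were 0.06 and 0.28, and for Cart 0.32 and 0.50. They were 0.91 and 0.59 for Calcr and 0.66 and 0.51 for Pomc. The first of each pair is the spread of a difference of 2 readings and the second that of single readings, so their sizes are not compared directly. The median over the 38 detected genes was 0.11 for the left minus right difference and 0.14 between NON pools. NON pool 5/10 had the widest gap for Calcr, with 4.82 on the left and 17.02 on the right. The left reading was not above background, nor were those of most other NON pools on the left. The sizes of this gap and of the Calcr spread are thus not fixed.

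**Figure D4:**
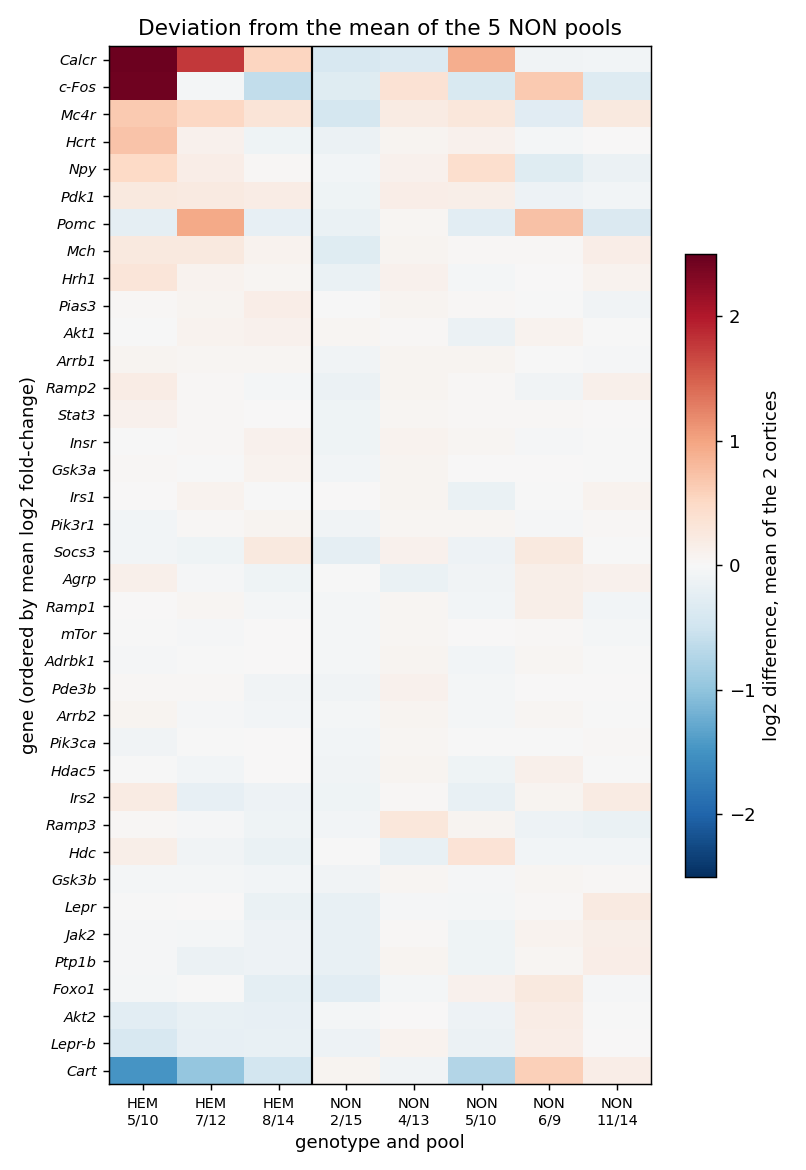
Difference of each pool from the mean of the 5 NON pools (log2, colour, mean of both cortices) for the 38 detected genes, ordered by mean log2 fold-change. HEM pool 5/10 differed by over 0.5 in 5 genes, HEM pool 7/12 in 4 and HEM pool 8/14 in 2, and most cells are near 0.

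By pool, the differences from the NON mean over both cortices were graded among the HEM pools. In HEM pool 5/10, 5 of 38 detected genes were more than 0.5 from the NON mean on the log2 scale (c-Fos, Calcr, Hcrt and Mc4r above, Cart below). In HEM pool 7/12 there were 4 (Calcr 1.77, Pomc 0.94 and Mc4r 0.53 above, Cart -0.97 below). HEM pool 8/14 had 2, Calcr at 0.53 and c-Fos at -0.61. Left Calcr was above background in 1 of 5 NON pools, so the sizes of the Calcr differences in this paragraph are not fixed. Among the controls, NON pool 5/10 had Calcr at 0.91 and Cart at -0.74, and NON pool 6/9 had Cart at 0.60, Pomc at 0.73 and c-Fos at 0.66, while the other 3 NON pools had none. Age ran with this order in HEM, where the youngest mice were in pool 5/10 and the oldest in pool 8/14. NON pools 11/14, with the ages of HEM pool 5/10, and 4/13, at 100 and 128 days, had 0 genes more than 0.5 from the NON mean. Each NON pool is itself part of that mean, which draws its differences toward 0, and the HEM pools are not. The numbers of genes in HEM and NON pools are thus not like measures, and the part of age was not tested. With 3 HEM pools age and pool cannot be told apart.

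The mice of T2 collected in the morning (AM) were other animals, with 2 HEM and 2 NON pools. HEM pool 9 was a single mouse, and the other AM pools held 2 mice each. By the labels, HEM pool 9 and a mouse of NON pool 7/8 were older than every PM mouse listed above. The other AM mice were within the age range of those PM mice. In the summed AM cortices no gene was called (0%), and 11 of 43 had an unadjusted p under 0.05 in edgeR. Calcr was 2.73 and 10.2 in HEM and 3.24 and 2.82 in NON left cortex, where all but the second HEM pool had raw counts of 16 to 19, under the lowest background of the PM pools, and so have no order. On the right it was 18.0 and 6.13 against 3.96 and 5.41, and the summed AM log2 fold-change was 1.35 (SE 0.65, edgeR adjusted p = 0.21) beside 1.54 in the PM pools. The right raw counts of HEM pool 9 and NON pool 1/3 were 31 and 35, where the PM background was 31.1 to 39.5. The size of the summed AM value is thus not fixed by these counts. Cart was 104.8 and 103.5 in HEM and 349.1 and 260.2 in NON left cortex, and 130.0 and 157.8 against 253.7 and 287.1 in the right. In the summed cortices its AM log2 fold-change was -1.18 (SE 0.47, edgeR adjusted p = 0.16), beside -0.93 in the PM pools. Akt2 was 322.1 and 282.1 against 350.5 and 372.7 in the left and 302.8 and 313.1 against 365.9 and 362.6 in the right, with a summed log2 fold-change of -0.26 (SE 0.09, edgeR adjusted p = 0.16) beside -0.22 in the PM pools. c-Fos was 839.5 and 633.4 in HEM and 1163 and 2128 in NON left cortex, with a summed AM log2 fold-change of -1.12 (SE 0.78).

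For no gene did the PM and AM effects differ beyond the test (0%), and 4 had an unadjusted p under 0.05 in edgeR (Calcr-1b, Hcrt, Irs1 and c-Fos). The difference for c-Fos was 2.27 (SE 0.96, edgeR adjusted p = 0.49), and 0.75 without HEM pool 5/10 (edgeR adjusted p = 0.62). For Calcr-1b it was 0.66 (SE 0.25, edgeR adjusted p = 0.49), for Calcr 0.19 (95% interval -1.52 to 1.91) and for Cart 0.25 (95% interval -0.98 to 1.47). Calcr-1b was above background in 7 of 16 PM pools and had 8 to 40 raw counts in the AM HEM and NON pools. The sizes of the Calcr-1b and Calcr differences are thus not fixed by these counts.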

How the data were processed

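RNA of the left and right cortex of T2 HEM and NON mice was counted on the nCounter platform, and the authors deposited raw counts per probe and pool, with no background correction or normalization. All 192 columns were mapped to samples by their names, and 0 were left unmapped. NON pools are called NOR in the column names.

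Tests used edgeR 4.0.16 (quasi-likelihood, prior count 0.125, R 4.3.3), taking as library size the geometric mean over 3 reference genes, with Benjamini-Hochberg adjustment over 43 genes. NanoStringDiff, named in the study's methods, was not used here. Each cortex was fitted over all its pools of known collection time, giving each combination of stage, genotype and AM or PM its own mean. Summed cortices used the 17 T2 pools, and left against right used the 34 T2 cortex samples with the pool as a block. Called genes had an adjusted p under 0.05 together with a log2 fold-change above 1 in size. Pool level measures were compared by exact permutation with SciPy 1.17.1 and adjusted over 14 tests. Figures were drawn with matplotlib 3.10.9.

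Alternatives were TMM, positive control probes, each reference gene left out, DESeq2 1.42.0, limma-trend 3.58.1 (pseudocount 0.5), subtraction of the negative control mean, a background filter, other sets of pools, age, other fold limits and each pool left out. The test was checked on simulated data. The members and gene lists were chosen with earlier results of these data known. Named genes were those called, those without overlap in both cortices, those the study names, the highest and lowest detected gene of each list, and genes with a pool over 1 (log2) apart. Genes named for a lack of overlap in 1 cortex, an unadjusted p or a pool's deviation, with Npy and the other list members, were added after their values were seen. The age-matched NON pools of the alternatives were 2/15, 6/9 and 11/14, matched on the labelled ages. Pools of a group have no identical counts (26 pairs, lowest chi-square per degree of freedom 20.5). Each of the 16 pools described holds 2 mice, while some other samples in the fits, such as AM HEM pool 9, hold a single mouse. The p-values measure the spread between pools, not between mice.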

Additional observations from a re-analysis of the deposited data

Results flagged for a closer look

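Among 100 NON groups of 5 pools tested for a pool set apart from the other 4 (the gap to its neighbour over 0.710 of the range), 6 were found, where chance gives about 1 in 20. Calcr in the right cortex was 17.02 normalised counts in NON pool 5/10 and 3.16 to 5.54 in the others. Pomc in the right cortex was 27.8 in NON pool 6/9 and 7.06 to 10.7 in the others, and the sum of the 4 hypothalamic peptides in the same sample was 59.8 against 35.8 to 39.0. Hcrt in the right cortex was 5.54 in NON pool 6/9 and 4.75 to 4.90 in the others. Gsk3a in the right cortex was 6609 in NON pool 4/13 and 6282 to 6326 in the others. Pik3ca in the left cortex was 3754 in NON pool 2/15 and 4103 to 4221 in the others. The groups of 3 HEM pools were not tested.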

How the results depend on the processing

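The left cortex count of 1 called gene was 2 with positive control probes, 2 with DESeq2 and 2 with the age-matched pools as a replicate block (Calcr, and Cart at -1.32, -1.16 and -1.37). Positive control scaling moved the median over all genes (log2) from 0.01 to -0.13 in the left, from 0.03 to -0.21 in the right and from 0.01 to -0.16 in the summed cortices. The count in the summed cortices was 1 (Calcr) with DESeq2 and 1 with the 3 age-matched NON pools. The replicate block called 0 genes in the right cortex and 0 in the sum, and without it the left and right effects differed for 0 genes. Deviations of age-matched pools correlated at -0.05 (left) and -0.09 (right) for HEM pool 5/10 with NON pool 11/14. The correlations were -0.20 and 0.32 for 7/12 with 6/9, and 0.27 and 0.25 for 8/14 with 2/15. Whether age pairs the pools was not tested. Leaving out each pool gave 1 to 4 called genes in the left cortex, 0 to 1 in the right (1 without NON pool 5/10, Calcr) and 0 to 1 in the sum (1, Calcr, without HEM pool 8/14 or NON pool 5/10). Calcr remained called in the left cortex under all 16 other settings and all 8 pools left out.

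c-Fos changed direction without HEM pool 5/10. Its leave-one-out values ran from -0.31 to 1.66 in the left, -0.42 to 1.55 in the right and -0.37 to 1.60 in the summed cortices, and with HEM and NON pools 5/10 both left out, an alternative chosen after seeing the data, they were -0.39, -0.52 and -0.46. The difference of its left and right effects ran from -0.0032 to 0.14. Of PM minus AM effects, Calcr ran from -0.28 (without HEM pool 5/10) to 0.63 and Cart from -0.0341 (without HEM pool 8/14) to 0.47. With positive control probes Npy was -0.0173 and Pdk1 -0.00999 in the right cortex. Socs3, near 0 throughout, took the other sign in the left cortex with age-matched pools (0.0248) and the block (0.0258), and in the right with positive controls (-0.17), age-matched pools (-0.0163) and the block (-0.0146). In the sum it did so with TMM (-0.0013), positive controls (-0.16), negative subtraction (-0.00081) and age-matched pools (-0.00095). Its leave-one-out values were -0.17 to 0.0701 (left), -0.0390 to 0.14 (right) and -0.0970 to 0.08 (sum), with the sign also turned on the left without HEM pool 5/10 (0.0506) or NON pool 6/9 (0.0126) and in the sum without NON pool 2/15 (-0.0368) or 5/10 (-0.0191). The cause of these changes was not tested. The receptor splice forms, Iapp, Ins1 and Ins2 were above background in fewer than 8 of 16 pools, and whether more counts would raise that number was not tested.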
